A study of Mus musculus with 12 samples.

Results

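The genes described here are Hmgcs1, Idi1, Fdps, Fdft1, Sqle, Lss, Cyp51 and Dhcr7, 8 genes of cholesterol synthesis among the 15642 genes that could be tested. They were chosen by name, and every probe whose gene symbol in the deposited table is one of these names was taken, which gave 14 probes. RNA came from C2C12 cells, an established line of mouse C3H myoblasts that fuse into myotubes when serum is lowered. All cells were transfected, either with the control siRNA siControl or with siBach1, an siRNA against the transcription factor Bach1, so that the controls share the transfection but not the silencing. Day 0 cells were in growth medium with 10% fetal bovine serum, and day 2 cells had been moved at confluence, 24 hours after transfection, to 2% horse serum. Each of the 4 conditions (siControl day 0, siBach1 day 0, siControl day 2 and siBach1 day 2) had 3 replicates on 12 one-colour arrays. A single siRNA sequence against Bach1 was used on these arrays, and day 2 differs from day 0 in medium, serum and time together.

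Cells make cholesterol from acetyl-CoA through mevalonate, isoprenoid diphosphates, squalene and lanosterol, and take it up with low-density lipoprotein. When membrane sterol is low, the transcription factor SREBP2 is escorted to the Golgi, cut free by the site-1 and site-2 proteases, and switches on the genes of synthesis and uptake together through sterol regulatory elements in their promoters. Muscle cells that fuse need membrane sterol, and isoprenoids from the same pathway anchor small GTPases. Bach1 pairs with small Maf proteins on Maf recognition elements, and is best known for holding down the haem oxygenase gene Hmox1.

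All values below are log2 signals from which the 75th percentile of their array was taken away, and levels of different probes cannot be set against each other. The targeted gene was lower in the silenced cells. Bach1 fell by 1.77 on the log2 scale at day 0 (limma, adjusted p = 1.2e-05) and by 1.97 at day 2 (adjusted p = 1.4e-05), and Hmox1 was higher by 3.30 and 3.12. All 9 tested myotube markers, among them Myog and Ckm, rose from day 0 to day 2 in siControl cells, with a median of 4.85, and in siBach1 cells, with a median of 4.38. Adipocyte and hepatocyte markers were mostly too dim to test, with 2 of 6 genes tested on each list. Of the leukocyte and endothelial markers 4 of 6 were bright enough to test, namely Ptprc, Cd68, Cd3e and Pecam1. The share of probes well above background ran from 47.6% to 58.9% over the arrays. One slide carried replicates 1 and 2 and another replicate 3. Every condition sat in a column of positions of its own on the slides, so that position and condition cannot be told apart. Nothing in the labels says whether replicates were separate cultures, so p-values measure only the spread between these samples, which may be technical. In RNA from whole cultures, fewer cells of a kind and less RNA per cell cannot be told apart.

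Of the 14 probes, 12 were tested, and all of these were well above background on each of the 12 arrays. The remaining 2 were second probes for Hmgcs1 and Sqle, well above background on 3 and 2 arrays, and were not tested. Each of the 8 genes is counted below by its brightest tested probe. A gene passed where its Benjamini-Hochberg adjusted p in the limma fit over all 29664 tested probes was under 0.05.

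Hmgcs1, the cytosolic HMG-CoA synthase at the entry to the mevalonate pathway, was the gene among the 8 that was higher in siBach1 cells at day 0. The siControl arrays read 4.49, 4.58 and 4.46 and the siBach1 arrays 5.23, 5.20 and 5.51. Every siBach1 array lay above every siControl array. The log2 difference was 0.80 (SE 0.21, 95% interval 0.34 to 1.27, n = 3 per group), a fold change of 1.75, with an adjusted p of 0.025 from limma. It was 0.68 on the first slide and 1.05 on the second. The call was close to the limit. Leaving out any one of the 3 siControl day 0 arrays, or replicate 1 or 3 of siBach1 at day 0, gave adjusted p from 0.0503 to 0.0901 with a difference of 0.70 to 0.85, and testing dim probes too gave 0.0822.

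None of the other 7 genes passed at day 0. Their log2 differences lay between -0.17 for Cyp51, the lanosterol demethylase, and 0.02 for Fdft1, the squalene synthase. For Fdps, which makes farnesyl diphosphate, the difference was -0.03 (95% interval -0.33 to 0.26), and for Dhcr7, the reductase of the last step, it was -0.01 (-0.26 to 0.24). The interval was widest for Lss, which closes the sterol rings to give lanosterol, at -0.75 to 0.63. So 1 of the 8 genes passed as higher and 0 as lower, where 10.1% and 9.85% of all genes tested did. The groups failed to overlap for Hmgcs1 alone, against 41.8% of all genes. The median difference of the 8 genes was -0.02, beside 0.08 over all genes tested.

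**Figure D1:**
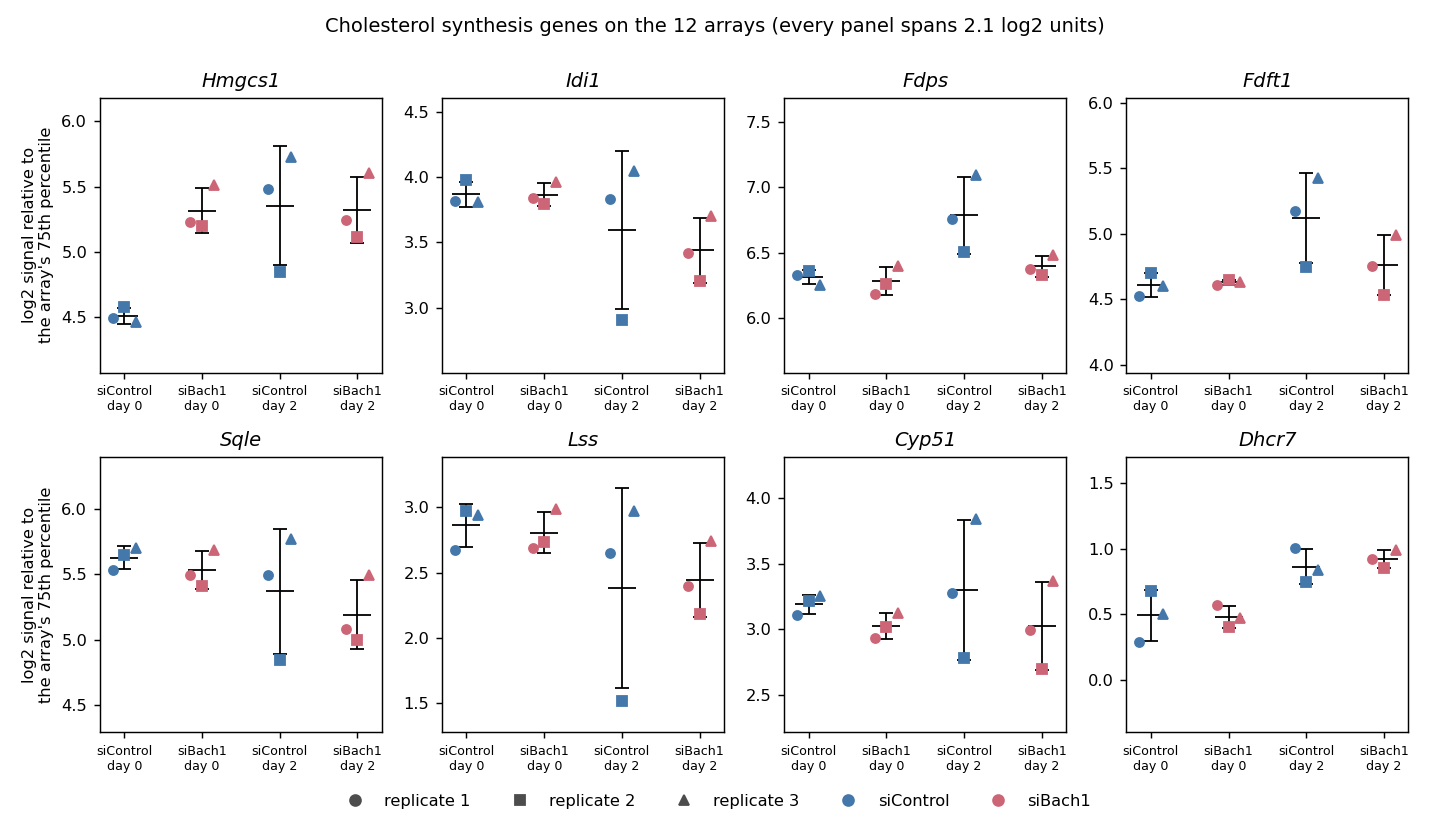
Log2 signal less the 75th percentile of the array (vertical axis) of the 8 genes, in pathway order, on each array, by condition (horizontal axis). Symbols mark the replicate number, colours the siRNA, and the black bars the mean and SD of 3 replicates. Hmgcs1 is higher in siBach1 than in siControl cells at day 0, and at day 2 the replicate 2 arrays (squares) are lowest in every panel.

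Promoter windows of 5 of the 8 genes, Hmgcs1, Idi1, Lss, Cyp51 and Dhcr7, were found in the RefSeq table of build GRCm38.p6, each from 250 bases before to 50 after an annotated start. Hmgcs1 is printed because it passed for silencing at day 0, though not at day 2. Idi1 (isopentenyl diphosphate isomerase) is printed as one that did not pass for silencing, and Dhcr7 because it rose with differentiation in both kinds of cells. Whether any motif bears on these changes was not tested. Capitals mark the sterol regulatory element letters TCACNCC or TCACNCCAC, the NF-Y box ATTGG and the Maf core TGACTCA on either strand. The windows are chr13:119690101-119690400 for Hmgcs1, chr13:8885356-8885655 for Idi1 and chr7:143829964-143830263 for the third of 3 annotated starts of Dhcr7, all on the plus strand.
Hmgcs1: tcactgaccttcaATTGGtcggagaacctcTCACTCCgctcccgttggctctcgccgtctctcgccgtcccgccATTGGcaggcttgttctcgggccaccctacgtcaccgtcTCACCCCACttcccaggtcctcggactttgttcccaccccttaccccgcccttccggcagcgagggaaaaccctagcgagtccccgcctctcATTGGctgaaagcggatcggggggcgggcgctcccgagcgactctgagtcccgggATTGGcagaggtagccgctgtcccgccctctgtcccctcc
Idi1: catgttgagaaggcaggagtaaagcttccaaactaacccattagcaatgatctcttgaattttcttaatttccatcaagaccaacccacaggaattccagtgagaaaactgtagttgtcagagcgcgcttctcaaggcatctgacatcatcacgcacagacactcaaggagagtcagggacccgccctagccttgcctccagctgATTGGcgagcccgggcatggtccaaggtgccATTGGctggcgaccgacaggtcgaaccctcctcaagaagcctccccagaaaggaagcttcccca
Dhcr7: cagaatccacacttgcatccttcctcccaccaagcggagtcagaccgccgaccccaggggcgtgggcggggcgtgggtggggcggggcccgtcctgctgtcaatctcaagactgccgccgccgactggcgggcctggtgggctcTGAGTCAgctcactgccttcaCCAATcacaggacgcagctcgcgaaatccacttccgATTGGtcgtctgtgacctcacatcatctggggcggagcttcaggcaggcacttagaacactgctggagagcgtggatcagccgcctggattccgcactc

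The 9-letter sterol regulatory element TCACNCCAC stands in the Hmgcs1 window from base -137 to -129, on the strand of the gene, and in no other window of these genes. It is found in 1.24% of all 32851 windows in the table when both strands are searched. The shorter form TCACNCC, which the longer one contains, is in 15.6% of windows and also stands at -220 in Hmgcs1. NF-Y boxes ATTGG, whose factor binds beside SREBP at many sterol genes, are in windows of all 5 genes, 4 times in Hmgcs1, but also in 37.4% of all windows. The Sp1 box GGGCGG is likewise in windows of all 5 genes and in 35.7% of all windows. The Maf core TGACTCA is in 5.2% of windows and, of these genes, in the third Dhcr7 window alone, at -106 on the opposite strand. The longer TGACTCAGC, in 0.454% of windows, is in none of them. The form with G in the middle, TGAGTCAGC, was not searched for, and the third Dhcr7 window holds it at the Maf core. These are matches of letters, and binding was not measured.

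**Figure D2:**
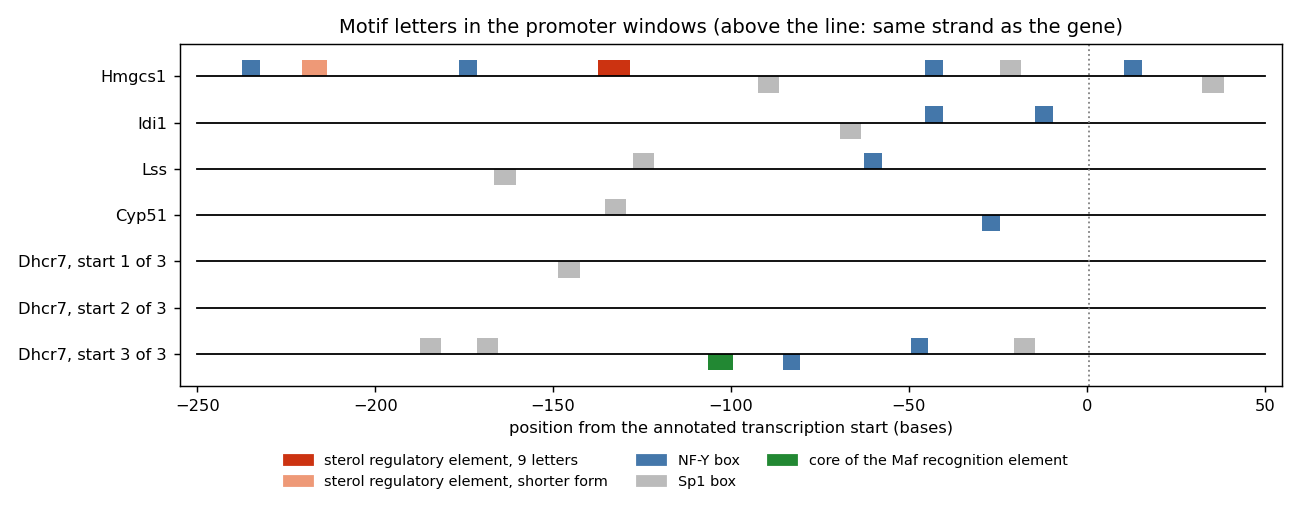
Matches of the searched motifs (colours) along the promoter windows of 5 genes, one line per annotated start, with the distance from the start in bases on the horizontal axis. Boxes above a line are on the strand of the gene. The 9-letter sterol regulatory element is in Hmgcs1, and Hmgcs1 holds 4 NF-Y boxes.

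At day 2 Hmgcs1 gave no such difference. The siControl arrays read 5.48, 4.85 and 5.73 and the siBach1 arrays 5.25, 5.11 and 5.60. The 2 groups overlapped, with a log2 difference of -0.03 (SE 0.21, 95% interval -0.50 to 0.43). The change from one day's silencing effect to the other's was -0.84 (SE 0.29), which did not pass over all probes in limma (adjusted p = 0.13, and 0.051 with a replicate block). It passed without replicate 2 of siControl at day 2, at -1.09 (adjusted p = 0.034), and without replicate 3 of siControl at day 2 it was -0.65 (adjusted p = 0.22).

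No gene of the 8 passed at day 2, in limma or in the methods' t-test after adjustment, and 1, Fdps, had an unadjusted p under 0.05. Fdps read 6.75, 6.51 and 7.09 in siControl and 6.38, 6.33 and 6.48 in siBach1 cells. The groups did not overlap. The log2 difference was -0.39 (SE 0.13, 95% interval -0.69 to -0.09), with an adjusted p of 0.086 from limma that became 0.047 with the replicate number as a block. Fdft1, the next enzyme, read 5.18, 4.75 and 5.43 in siControl and 4.76, 4.54 and 4.99 in siBach1 cells. Here the groups overlapped, with a difference of -0.36 (95% interval -0.72 to 0.01) and an adjusted p of 0.19. The other 5 of these genes beside Hmgcs1 lay between -0.28 for Cyp51 and 0.06 for Lss. Against the 0 of 8 that passed in either direction, 6.38% of all genes passed as higher and 7.4% as lower at day 2, and against the 1 of 8 that did not overlap stood 34.7% of all genes. The median of the 8 genes was -0.17, beside -0.03 over all genes. Of the 9 myotube markers, 4 passed as lower in siBach1 cells at day 2 (median -0.54), and their part in the values of the 8 genes was not tested.

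The 8 genes moved together between replicates at day 2. In siControl cells all 8 were lowest on the replicate 2 array and 7 were highest on the replicate 3 array, while 35.9% of all genes were lowest and 43.5% highest there. In siBach1 cells all 8 were lowest on replicate 2 and all 8 highest on replicate 3, against 39.7% and 50.8% of all genes. The 8 genes lay on average 0.48 below their condition mean on the siControl day 2 replicate 2 array, and 0.20 below it on that of siBach1. At day 0 the mean deviations of the 3 arrays of a condition lay between -0.09 and 0.11. The myotube markers had mean levels of 7.03, 7.09 and 6.92 on the 3 siControl day 2 arrays, and of 6.44, 6.45 and 6.15 on those of siBach1. In both conditions their mean was thus highest on replicate 2 and lowest on replicate 3, the reverse of the 8 genes. Probes well above background made up 57.9%, 51.3% and 51.5% on the siControl day 2 arrays. What set the replicates apart was not tested.

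Set against the siControl array with the same replicate number, siBach1 cells at day 2 were lower for all 8 genes in replicate 1 (median -0.33), for 3 of 8 in replicate 2 (median 0.13) and for 7 of 8 in replicate 3 (median -0.31). Over all genes, 52.1%, 54.3% and 53.9% were lower in the same pairs. Lss gives the extreme case, with siBach1 differences of -0.25, 0.67 and -0.23. Without siControl day 2 replicate 2, Fdps (-0.53, adjusted p = 0.024) and Fdft1 (-0.54, adjusted p = 0.039) passed as lower in limma. Without siControl day 2 replicate 3 they moved the other way, to -0.24 (adjusted p = 0.22) and -0.20 (adjusted p = 0.47). With both day 2 arrays of replicate 2 left out, a choice made after seeing the data, 0 of the 8 passed.

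**Figure D3:**
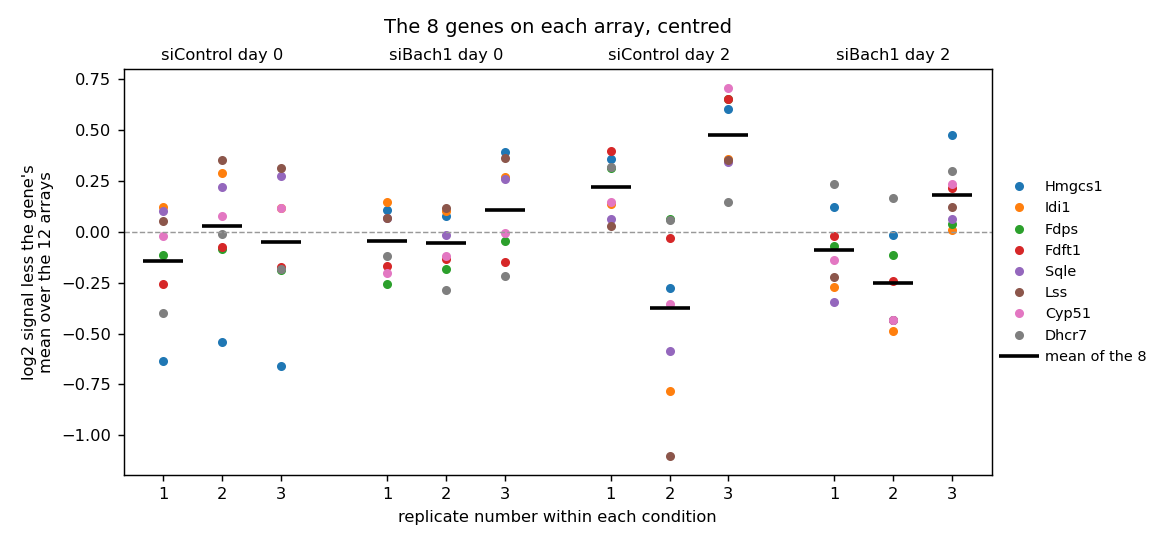
Log2 signal of each of the 8 genes less its mean over the 12 arrays (vertical axis), for each replicate of each condition (horizontal axis), with the mean of the 8 genes as a black bar. The mean is -0.38 on siControl day 2 replicate 2 and 0.48 on siControl day 2 replicate 3, and the order of the replicates is the same in siBach1 cells at day 2.

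From day 0 to day 2 in siControl cells, 4 of the 8 genes rose and none fell past the threshold. Over all genes, 27.7% rose and 30.1% fell. Hmgcs1 rose by 0.84 (SE 0.21, adjusted p = 0.0060), a fold change of 1.79. Fdps went from 6.33, 6.36 and 6.25 to 6.75, 6.51 and 7.09, a rise of 0.47 (SE 0.13, adjusted p = 0.012). Fdft1 went from 4.52, 4.70 and 4.60 to 5.18, 4.75 and 5.43, a rise of 0.51 (SE 0.16, adjusted p = 0.023). Dhcr7 went from 0.29, 0.68 and 0.50 to 1.01, 0.75 and 0.84, a rise of 0.37 (SE 0.11, adjusted p = 0.016). These were the 4 genes whose groups did not overlap, a share that 66% of all genes reached. In all 4 the smallest rise by replicate number was in replicate 2, at 0.27, 0.15, 0.05 and 0.07. Within the first slide the rises were 0.63, 0.29, 0.35 and 0.39 for Hmgcs1, Fdps, Fdft1 and Dhcr7, and within the second 1.27, 0.84, 0.82 and 0.33. The calls for Fdft1 and Dhcr7 were lost without replicate 1 of either siControl group (adjusted p = 0.0726 and 0.0674 for Fdft1, 0.0678 and 0.0665 for Dhcr7), and that for Fdft1 also without replicate 3 of either (0.0579 and 0.088). The count was then 2, or 3 where replicate 3 was left out.

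Idi1, Sqle, Lss and Cyp51 did not pass in siControl cells. Sqle, the squalene epoxidase, read 5.53 to 5.70 at day 0 and 4.85 to 5.77 at day 2, a difference of -0.26. Idi1 read 3.81 to 3.98 at day 0 and 2.91 to 4.05 at day 2, a difference of -0.27. Cyp51 read 3.11 to 3.25 and 2.78 to 3.84, a difference of 0.11. In each the day 2 range took in the whole day 0 range, and the lowest value was that of replicate 2.

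In siBach1 cells Dhcr7 alone passed, as higher. It went from 0.57, 0.40 and 0.47 to 0.93, 0.85 and 0.99. The groups lay apart, with a rise of 0.44 (SE 0.11, adjusted p = 0.0063), a fold change of 1.36. It passed in limma whichever of the 12 arrays was left out (adjusted p at most 0.026), and was 0.40 within the first slide and 0.51 within the second. Hmgcs1 was at 0.00 (95% interval -0.46 to 0.47). Fdps was at 0.11 (-0.18 to 0.41) and Fdft1 at 0.13 (-0.23 to 0.50), and both passed as higher after quantile normalization. Idi1 was at -0.42 (adjusted p = 0.18) with groups that did not overlap, from 3.80 to 3.96 at day 0 and from 3.20 to 3.70 at day 2. It passed as lower without siControl day 2 replicate 2 (adjusted p = 0.020), an array that enters this comparison only through the shared estimate of the spread. Over all genes 26.7% rose and 33.3% fell in siBach1 cells, and 65.3% did not overlap, beside 1 that rose and 2 that did not overlap among the 8. That Hmgcs1, Fdps and Fdft1 passed in siControl and not in siBach1 cells does not show that their changes differed, since 0 of the 8 passed the limma test that sets the silencing effect at day 2 against that at day 0, and 1, Hmgcs1, had an unadjusted p under 0.05. In that test 3.08% of all genes passed as higher and 2.74% as lower. The 2 silencing and 2 differentiation comparisons share arrays.

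**Figure D4:**
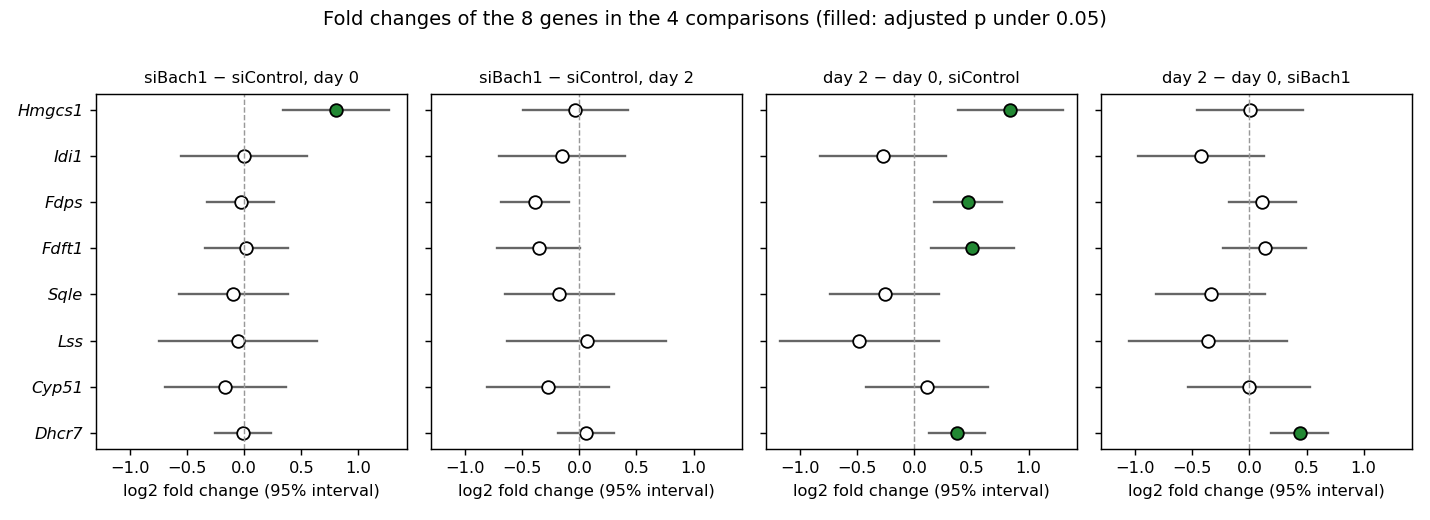
Log2 fold change (horizontal axis) with its 95% interval for the 8 genes in the 2 silencing and the 2 differentiation comparisons. Filled points passed an adjusted p under 0.05: Hmgcs1 for silencing at day 0, Hmgcs1, Fdps, Fdft1 and Dhcr7 in siControl cells from day 0 to day 2, and Dhcr7 in siBach1 cells.

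Genes with several probes did not always give 1 answer. Lss had 3 tested probes. The brightest went from 2.67, 2.97 and 2.94 to 2.65, 1.52 and 2.97 in siControl cells, a difference of -0.48 that did not pass, and a second probe gave -0.38. The third probe, the dimmest of them, went from -0.66, -0.53 and -0.80 to 0.22, -0.50 and 0.84 and passed as higher, at 0.85 (SE 0.29, adjusted p = 0.030). Over the 12 arrays it had a correlation of 0.09 with the brightest probe, whereas the first 2 probes had one of 0.97 with each other. The direction for Lss in differentiation therefore depends on the probe. The 2 probes for Fdft1 correlated at 0.89 and both lay higher at day 2, by 0.51 and 0.42. The second did not pass in limma (adjusted p = 0.090). It passed in some alternatives, such as limma with a replicate block (adjusted p = 0.025) or after quantile normalization (adjusted p = 0.031). The 2 probes for Cyp51 correlated at 0.84, with differences of 0.11 and 0.16.

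To see which other genes had the same profile, the mean of the 8 centred genes was correlated over the 12 arrays with each of the 13540 genes well above background on every array. The arrays share conditions and replicate numbers, so this is a description. Among the 10 most alike were Gm33302 (r = 0.93), Rara (0.89), Srebf1 (0.85), Krt81 (0.84), Mvd (0.84), Akip1 (0.82), Hsd17b7 (0.80), Msmo1 (0.79) and Mex3b (0.79). Of these, Srebf1, Mvd, Hsd17b7 and Msmo1 are on the lists of pathway genes used here. Srebf1 read 4.32, 4.08 and 4.89 in siControl and 4.21, 4.24 and 4.70 in siBach1 cells at day 2, and in siControl cells its lowest array was again replicate 2. Of the 8 genes themselves, Cyp51 followed the mean of the other 7 most closely (r = 0.88), Hmgcs1 less (0.45) and Dhcr7 least (0.17).

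Other enzymes of the pathway gave 1 call under silencing. Of 4 tested genes of the early mevalonate steps beside Hmgcs1 and Idi1, none passed at either day. Their medians were 0.04 at day 0 and -0.16 at day 2. Of 9 further genes from squalene to cholesterol, 1 passed, and as lower, at day 0. It was Lbr, a sterol reductase that is also the lamin B receptor of the nuclear envelope, which read 5.04, 4.92 and 5.21 in siControl and 4.34, 4.22 and 3.97 in siBach1 cells (-0.88, SE 0.14, adjusted p = 0.0019). None of the 9 passed at day 2, where their median was -0.17. Beside these counts, 10.1% of all genes passed as higher and 9.85% as lower at day 0, and 6.38% and 7.4% at day 2.

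Among the regulators, Mbtps1 and Mbtps2, which encode the site-1 and site-2 proteases that release SREBP, were lower in siBach1 cells at both days. Mbtps2 read 1.36, 1.55 and 1.48 in siControl and 0.44, 0.21 and 0.31 in siBach1 cells at day 0, a difference of -1.14 (SE 0.10, adjusted p = 4.7e-05), and it was lower by -0.65 at day 2 (adjusted p = 0.0025). Its groups lay apart at both days. Mbtps1 was lower by -0.56 at day 0 (adjusted p = 0.0023) and -0.48 at day 2 (adjusted p = 0.0089). Nfe2l1 was lower by -0.44 at day 2 (adjusted p = 0.023). Of the 14 regulators, 1 passed as higher and 2 as lower at day 0, where 10.1% and 9.85% of all genes did. At day 2, 0 passed as higher and 3 as lower, beside 6.38% and 7.4% of all genes. Srebf1 and Srebf2, which encode the SREBP proteins, did not pass at either day.

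None of the 8 genes takes up cholesterol, and the uptake genes come from a separate list. Of 16 tested genes of uptake and transport inside the cell, 3 were higher and 1 lower at day 0, and 1 was higher at day 2. Among all genes tested, 10.1% passed as higher and 9.85% as lower at day 0, and 6.38% and 7.4% at day 2. The scavenger receptor Scarb1 was lower by -0.44 at day 0 (adjusted p = 0.0095), and Gramd1c (0.43), Npc2 (0.36) and Lipa (0.30) were higher. Npc1, which moves cholesterol out of lysosomes, was higher by 0.66 at day 2 (adjusted p = 0.041, and 0.10 without siControl day 2 replicate 2).

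Of 11 tested genes of efflux, storage and the sterol-sensing liver X receptors, 2 were higher and 1 lower at day 0, and 3 were higher at day 2. The shares of all genes were 10.1% higher and 9.85% lower at day 0, and 6.38% and 7.4% at day 2. Abcg1, an exporter of cholesterol, was higher by 0.83 at day 0 (adjusted p = 0.043) and by 0.88 at day 2 (adjusted p = 0.045), but without siControl day 2 replicate 2 the second adjusted p was 0.11. Abca1, the exporter to apolipoprotein, read -3.73, -3.76 and -3.70 in siControl and -2.69, -3.18 and -2.59 in siBach1 cells at day 2, a difference of 0.91 (SE 0.17, adjusted p = 0.0079). At day 0 it was not well above background on any array. Nceh1, a hydrolase of stored cholesteryl esters, was higher by 0.65 at day 2 (adjusted p = 0.0020). The liver X receptors went opposite ways at day 0, with Nr1h2 higher by 0.44 (adjusted p = 0.0031) and Nr1h3 lower by -0.69 (adjusted p = 0.043). The last passed in 9 of 22 alternatives.

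Of 11 genes of the isoprenoid branches, Nus1 was higher at day 0 (0.44) and Fntb lower at day 2 (-0.36). Of 13 tested fatty acid synthesis targets of SREBP, Mid1ip1 was higher (0.36) and Elovl5 lower (-0.45) at day 0, and Me1 was higher at day 2 (0.43). For both lists the shares of all genes were 10.1% higher and 9.85% lower at day 0, and 6.38% and 7.4% at day 2. Without siControl day 2 replicate 2, Fntb and Me1 no longer passed (adjusted p = 0.084 and 0.12). With the replicate block the counts rose by more than 1.5 times for the regulators at day 0 (1 higher and 4 lower). They did so too for uptake and transport at day 2 (1 higher and 2 lower). The isoprenoid branches likewise gave 1 higher and 4 lower at day 0, and 1 higher and 2 lower at day 2. The block also raised the share of all probes called, in either direction, to 27.5% at day 0 and 21.3% at day 2.

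**Figure D5:**
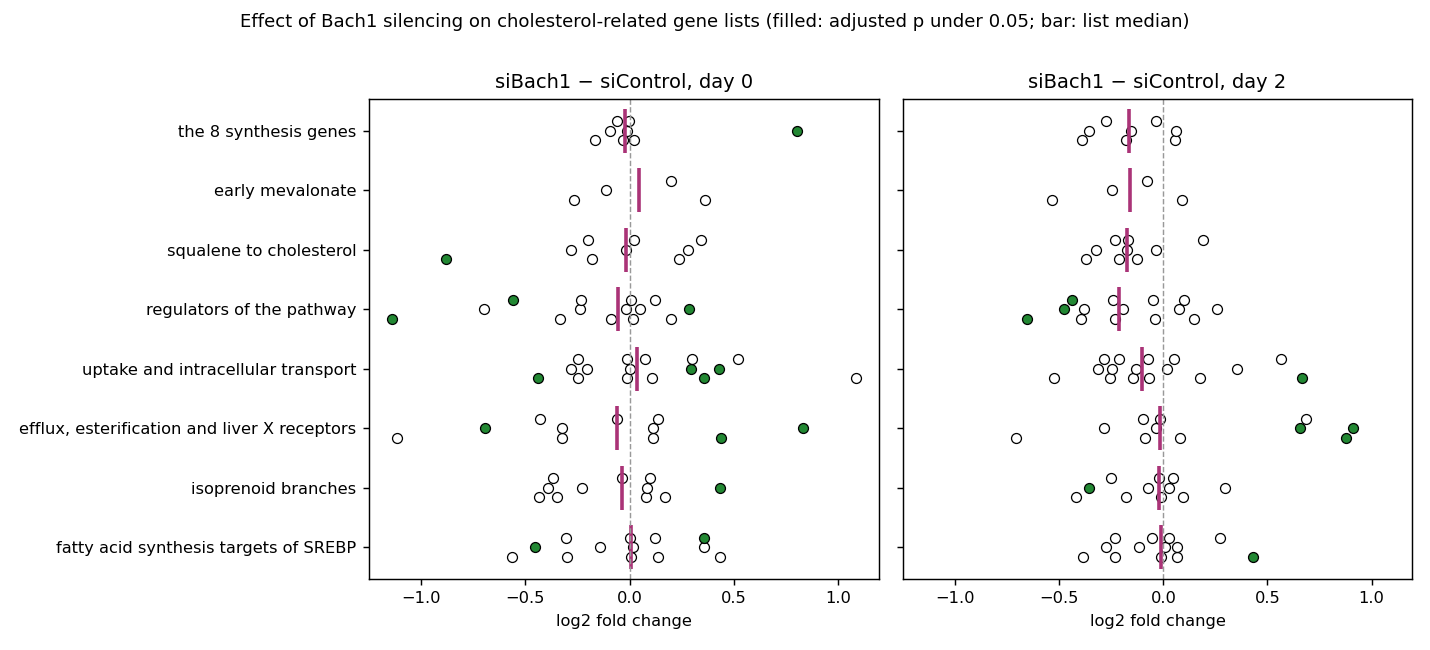
Log2 fold change of siBach1 over siControl (horizontal axis) at day 0 and day 2 for every tested gene of the 8 synthesis genes and of 7 cholesterol-related lists. Filled points passed an adjusted p under 0.05 and the upright bars are list medians, which lie between -0.21 and 0.04.

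With differentiation, genes of the pathway beside the 8 moved in both directions. Of the 9 genes from squalene to cholesterol, 2 rose and 3 fell in siControl cells. Among all genes tested, 27.7% rose and 30.1% fell in siControl cells, and 26.7% and 33.3% in siBach1 cells. Tm7sf2, a sterol reductase, rose by 1.37 (adjusted p = 3.3e-05) while Lbr, which catalyses the same step, fell by 1.58 (adjusted p = 5.6e-06). Ebp, the sterol isomerase, rose by 0.99 and Sc5d fell by 0.61. In siBach1 cells the counts were again 2 and 3, with Tm7sf2 up by 1.32 and Lbr down by 1.03 on the log2 scale. In the early mevalonate list no gene passed in siControl cells, and Pmvk passed as lower in siBach1 cells (-0.58, adjusted p = 0.028). With the replicate block in limma, 1 gene of this list passed as higher in siControl cells, Mvd (0.40, adjusted p = 0.035), and 1 as lower. The block raised the share of all probes called to 62.7% in siControl cells and to 64% in siBach1 cells.

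Of the 14 regulators, 5 rose and 2 fell in siControl cells, where 27.7% and 30.1% of all genes did. Nfe2l1 (1.40), Mylip (1.26), a ubiquitin ligase, and Srebf2 (0.43) rose, and Pgrmc1 fell by 0.83. Of the 16 uptake and transport genes 4 rose and 4 fell, with Scarb1 down by 1.11 and Gramd1a up by 0.90. Vldlr, counted as higher, was not well above background in siControl cells at day 0, so no fold is given. Of the 11 efflux genes 4 rose and 1 fell. Abca1 was among those that rose, and was not well above background on any siControl array at day 0. Apoe, the lipoprotein component, went from -3.26, -3.08 and -1.27 to 0.39, 0.28 and 0.07 (2.79, adjusted p = 0.00058), with the day 0 arrays far apart. The 8 synthesis genes had a median change of 0.24 in siControl and 0.00 in siBach1 cells, beside 0.01 and -0.06 over all genes.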

How the data were processed

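Per the labels and the study's methods, total RNA was labelled with Cyanine 3 and hybridised to Agilent 8x60K mouse arrays. The authors deposited each array's scanner output, whose processed signal is a background-subtracted intensity, and a table of normalized log2 values, which were recovered from the scanner files to within 0.0045. The submitters' processing notes name Agilent Feature Extraction 9.1, and the methods name GeneSpring. Labels name the siRNA siBach1 and the methods siBach1-2.

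Control spots and 76 to 110 outlier spots per array were removed. No spot was saturated. Repeated spots were averaged, log2 was taken, and values were set relative to the 75th percentile of their array. Tested were the 29664 of 56605 probes that all 3 arrays of some condition measured well above background. A gene is counted by its tested probe with the highest mean. One limma fit (limma 3.58.1, R 4.3.3) of the 4 conditions without a block was used, with a threshold of 0.05 on the adjusted p. It was run on simulated arrays with independent errors, which lack the deviations that arrays of the same replicate number share. Tables were made with Python 3.11.15, pandas 2.3.3 and NumPy 2.4.6. Precision is limited by the number of arrays.

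Named genes are the 8 genes with every probe, Bach1 and Hmox1 as checks, up to 4 genes per list with the largest changes among those passing, and the 10 genes most alike in profile. The Srebf1 and Srebf2 results under silencing were added after their values were seen. Some genes that the rule names are not reported here. The members and lists were chosen with earlier results of these data known.

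Arrays with the same replicate number deviated together in all 18 pairs, with correlations of 0.142 to 0.595, so the numbers pair the samples. The replicate block is given for some of the calls that it changed, and not for all of them. The alternatives were quantile normalization, normexp with an offset of 50, the authors' values, no or a strict filter, replicate or slide as a block, fewer arrays, a robust prior, the methods' t-test, a fold change of at least 2, gene means, and each array left out.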

Additional observations from a re-analysis of the deposited data

Results flagged for a closer look

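For 3 genes beside the 8, the silencing effect at day 2 differed from that at day 0 by the test of the difference in limma. For Abca1 the change of the effect was 1.23 (SE 0.24, adjusted p = 0.021), with no day 0 array well above background, so the day 0 side of it is not a measured level. It passed in 13 of 20 alternatives, and with the normexp background correction it was 0.18. Nceh1 read 3.25, 3.20 and 3.19 in siControl against 3.16, 3.24 and 3.07 in siBach1 cells at day 0. Its day 2 arrays read 3.40, 3.49 and 3.19 against 4.07, 3.99 and 3.97. The change was 0.71 (SE 0.13, adjusted p = 0.017), and it passed in 19 of 21 alternatives. For Nr1h2 it was -0.46 (SE 0.11, adjusted p = 0.040), and this call held in 7 of 21 alternatives. None of the 8 synthesis genes passed the same test.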

How the results depend on the processing

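Of the 40 values of the 8 genes over 5 comparisons, 6 passed and 34 did not. None of the 6 changed direction in an alternative. Of the 34, 6 passed in at least 1 adjusted alternative, each in the direction first found, and 19 changed sign in at least 1 without passing. At a fold change of at least 2 the count of genes passing was 0 in each comparison. Without a filter on dim probes it was 0 for silencing at day 0 and 2 for siControl differentiation. The replicate block gave 1 gene at day 2 (Fdps, lower), where slide as a block also gave 1, and it changed no other count of the 8. Slide as a block gave 1 for the difference between the silencing effects (Hmgcs1). For siControl differentiation, only the arrays of the comparison gave 2, and the methods' t-test gave 1 unadjusted and 0 after adjustment. For siBach1 differentiation, quantile normalization gave 3 and the unadjusted t-test 2. Leaving out 1 array gave 0 to 1 genes for silencing at day 0, 0 to 2 at day 2, 2 to 4 for siControl and 1 to 2 for siBach1 differentiation, and 0 to 1 for the difference. In that difference 52% of the calls over all probes were higher, and 64.8% after quantile normalization. Values within a slide had no test. The cause of these shifts was not tested.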
